A study of Mus musculus with 23 samples.

Results

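The oxytocin and vasopressin system was described by 6 genes, the peptide precursors Oxt and Avp, the receptors Oxtr, Avpr1a, and Avpr1b, and Cd38, an enzyme needed for oxytocin release. All array probes that carry these gene names were taken, which gave 1 probe per gene, 6 of 39429 probes and 6 of 31829 gene names in all. RNA came from the whole brain, cerebrum and cerebellum together, of 12 male C57BL/6J progenies aged 19 weeks, collected after behavioral tests. All were IVF embryos that were carried by ICR recipient mothers, delivered by cesarean section, nursed by ICR foster mothers, and given the control diet after weaning. The groups differed in the diet of the recipient mother from 1 month before embryo transfer until delivery. It was the control diet (CD, 20% casein and 0.02% folic acid), the protein-restricted diet (PR, 5% casein and 0.02% folic acid), or the protein-restricted diet with added folic acid (FA, 5% casein and 0.1% folic acid), with 4 mice in each group. The paper gives the diet of the foster mothers as the control diet alone in its methods, but as CD, PR, or FA in its results. Whether the nursing diet also differed between the groups is therefore not known here. Which recipient mother carried each mouse is not given in the sources used here, so the 4 mice of a diet may include littermates.

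Oxytocin and vasopressin are peptide hormones made by large neurosecretory neurons of the paraventricular and supraoptic nuclei of the hypothalamus. Each is cut from a precursor that also contains a neurophysin, the carrier protein with which the hormone is packed in granules and moved to the posterior pituitary. Vasopressin limits water loss in the kidney, oxytocin drives milk ejection and labor, and both act within the brain on social behavior through receptors that signal through Gq proteins and calcium. Cd38 makes cyclic ADP-ribose, which releases calcium from internal stores through ryanodine receptors.

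The Oxt and Avp genes are neighbors on mouse chromosome 2, on opposite strands. In the mm9 coordinates of the array files, the Oxt probe lies at chr2:130402665-130402724 on the plus strand and the Avp probe at chr2:130406552-130406817 on the minus strand, with 3827 bases between them. The Avp probe has 60 bases but covers a stretch of 266 bases, so it crosses a splice junction. Its sequence, which belongs to the neurophysin part of the precursor, is shown because it is the piece of Avp RNA that was measured.
Avp probe: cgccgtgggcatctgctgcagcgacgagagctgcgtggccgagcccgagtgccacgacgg
The 250 bases before each transcription start are shown for both genes because they are the most proximal control regions of the pair whose values are followed below. They were taken from RefSeq on GRCm38.p6 at chr2:130575919-130576168 (plus strand) for Oxt and at chr2:130582589-130582838 (minus strand) for Avp. Capitals mark TGACC or its reverse complement GGTCA, a half-site of nuclear hormone receptors, and CACGTG, the E-box bound by clock transcription factors.
Oxt promoter: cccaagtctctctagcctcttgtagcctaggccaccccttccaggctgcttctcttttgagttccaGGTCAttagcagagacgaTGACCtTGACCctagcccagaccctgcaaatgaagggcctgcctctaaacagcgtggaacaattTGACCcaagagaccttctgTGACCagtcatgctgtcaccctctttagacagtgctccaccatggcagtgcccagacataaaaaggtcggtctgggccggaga
Avp promoter: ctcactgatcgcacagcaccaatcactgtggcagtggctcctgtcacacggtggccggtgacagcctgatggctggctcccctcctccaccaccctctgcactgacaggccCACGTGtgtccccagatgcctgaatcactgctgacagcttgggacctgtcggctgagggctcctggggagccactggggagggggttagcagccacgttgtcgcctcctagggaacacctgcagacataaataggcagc
The Oxt window held 5 matches to TGACC on either strand and 0 to CACGTG, and the Avp window held 1 match to CACGTG and 0 to TGACC. Of 32851 promoter windows of this length, 35.2% held TGACC, 0.0426% held it at least 5 times, and 6.02% held CACGTG. The matches do not overlap each other. A match of letters is a description of the window and no evidence of binding.

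Values are log2 of the normalized intensity that the authors deposited, and a difference of 1 on this scale is a 2-fold difference in intensity. Groups were compared with limma, fitted to all 39429 probes and all 12 arrays, and a probe was called at an adjusted p under 0.05. The probes of Oxt, Avp, Oxtr, Avpr1a, and Cd38 were well above the local background on all 12 arrays, and that of Avpr1b on 0. All 9 probes of 5 whole-brain marker genes were well above background on every array. The 4 arrays of a diet lay on 1 slide of their own, so slide and diet cannot be told apart. The number of spots well above background was 27068 to 28458 on the CD arrays, 31266 to 33478 on the PR arrays, and 30408 to 31672 on the FA arrays. The array of FA replicate 2 stood apart in several hypothalamic genes, and each result on Oxt and Avp is therefore given with and without it. This array was singled out after its values were seen. The search for a brain far from the others of its group, given below, flagged 4 values, none of them on this array.

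The CD brains had the highest Oxt level of the 3 groups on average. Oxt read 13.81, 13.66, 13.83, and 14.03 in the CD progenies, 13.45, 13.45, 13.12, and 13.24 in the PR progenies, and 13.67, 11.68, 13.86, and 13.16 in the FA progenies (replicates 1 to 4). Every PR brain read below every CD brain, whereas the FA brains ranged from the CD level down to FA replicate 2, the lowest of all. The group means were 13.83 ± 0.15 for CD, 13.31 ± 0.16 for PR, and 13.09 ± 0.99 for FA (SD, n = 4). The fitted difference was −0.52 between PR and CD (SE 0.39, 95% interval −1.37 to 0.34, adjusted p = 0.340), a ratio of 0.699, and −0.74 between FA and CD (SE 0.39, 95% interval −1.59 to 0.11, adjusted p = 0.166), a ratio of 0.599. Neither passed the test. In whole-brain RNA, fewer cells that make a peptide and less RNA per cell cannot be told apart.

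The test of Oxt turned on FA replicate 2, because the 3 groups share 1 estimate of the spread. Without that array, Oxt fell by 0.52 between PR and CD (SE 0.15, 95% interval −0.86 to −0.18, adjusted p = 0.0293). It was also called when the CD and PR arrays alone entered the fit (adjusted p = 0.0118). The difference between FA and CD shrank to −0.27 without the array (SE 0.16, 95% interval −0.64 to 0.10, adjusted p = 0.240). The difference between FA and PR was −0.22 with it (adjusted p = 0.851) and 0.25 without it (adjusted p = 0.602), so its sign rested on 1 brain.

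Avp had the same order of group means as Oxt, with CD above PR and PR above FA, and a smaller spread. Avp read 11.22, 11.17, 11.20, and 11.43 in the CD progenies, 11.09, 10.79, 10.86, and 10.89 in the PR progenies, and 10.75, 10.13, 11.29, and 10.83 in the FA progenies. Again all PR brains read below all CD brains, FA replicate 2 was the lowest of 12, and FA replicate 3 lay within the CD range. The means were 11.26 ± 0.12 for CD, 10.90 ± 0.13 for PR, and 10.75 ± 0.48 for FA (SD, n = 4). The fitted difference was −0.35 between PR and CD (SE 0.20, 95% interval −0.78 to 0.08, adjusted p = 0.204) and −0.51 between FA and CD (SE 0.20, 95% interval −0.94 to −0.07, adjusted p = 0.0691).

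These Avp differences did not pass the test in the fit of all arrays. Between PR and CD, the adjusted p was 0.0555 without FA replicate 2, and 0.0230 when CD and PR alone were fitted, where Avp was called. Between FA and CD, Avp fell by 0.68 without FA replicate 3 (adjusted p = 0.0114) and differed by −0.30 without FA replicate 2 (adjusted p = 0.114). Between FA and PR it differed by −0.15 (adjusted p = 0.785), and by 0.05 without FA replicate 2 (adjusted p = 0.935).

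**Figure D1:**
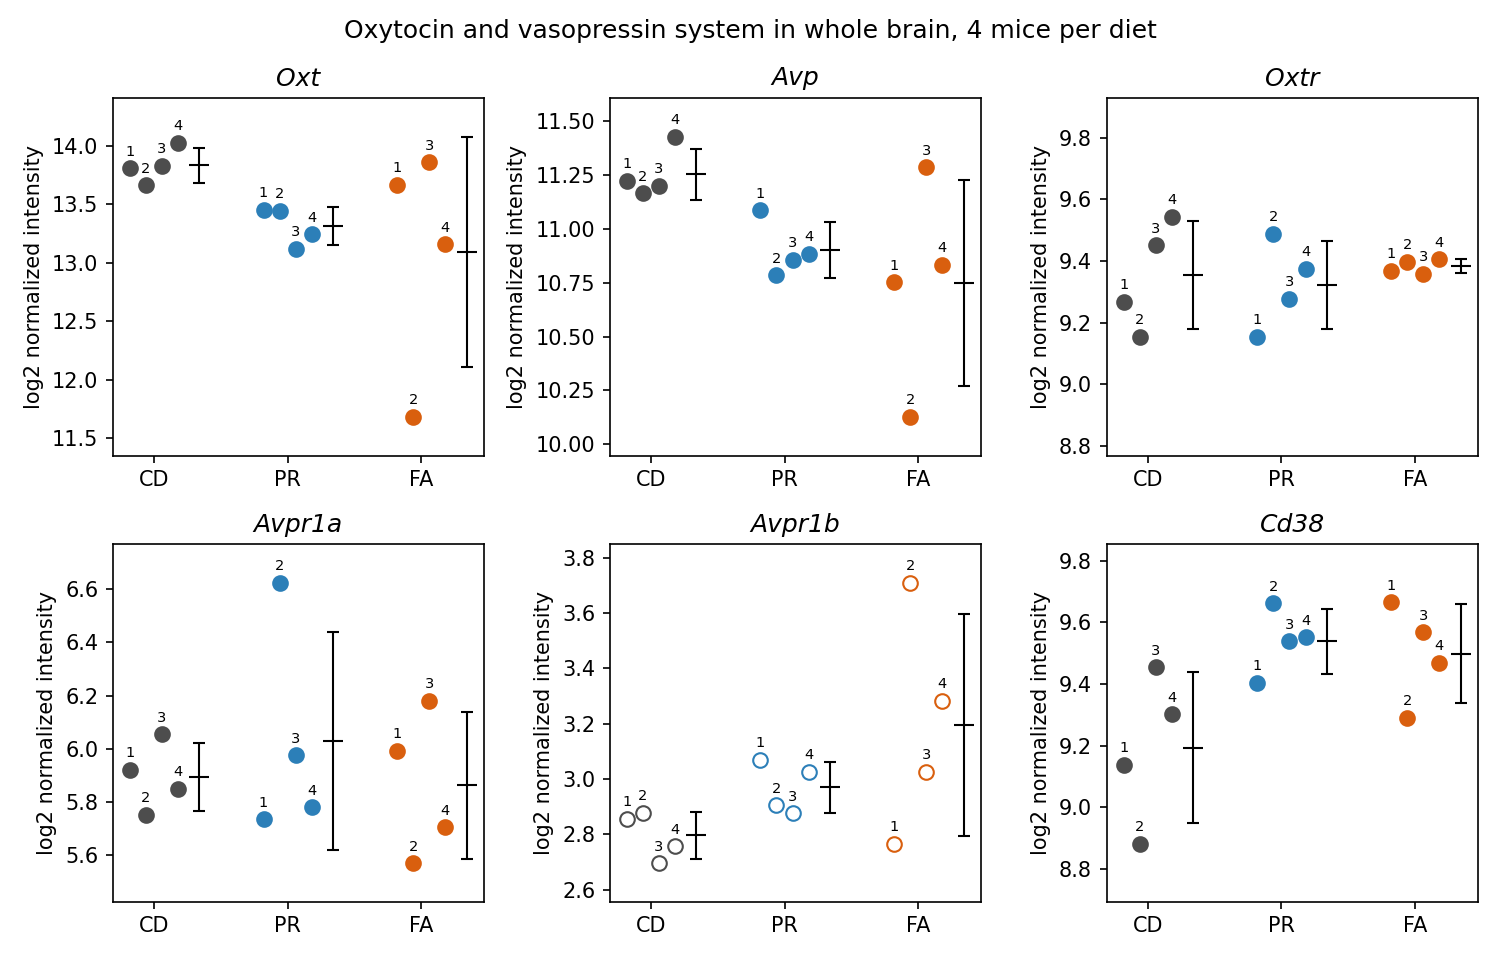
Log2 normalized intensity (y axis) of the 6 genes in each brain, by maternal diet (x axis) and replicate number; filled points were well above background, open points were not, and the bars are mean ± SD of 4 brains. Oxt and Avp of the PR group lie below the CD group without overlap, FA replicate 2 is the lowest brain in both, and the groups overlap in the other genes.

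Oxtr, the oxytocin receptor, is a Gq-coupled receptor of many forebrain regions, and its probe lies at chr6:112423686-112423745 (mm9, minus strand). Oxtr read 9.27, 9.15, 9.45, and 9.54 in the CD progenies, 9.15, 9.49, 9.28, and 9.37 in the PR progenies, and 9.37, 9.40, 9.36, and 9.41 in the FA progenies. The groups overlapped, and the FA brains lay within the range of the CD brains, closer to each other than those of either other diet. The difference was −0.03 between PR and CD (95% interval −0.23 to 0.17, adjusted p = 0.826), 0.03 between FA and CD (95% interval −0.17 to 0.23, adjusted p = 0.838), and 0.06 between FA and PR (95% interval −0.14 to 0.26, adjusted p = 0.83). These intervals leave room for a change of about 0.2 in either direction. FA replicate 2, which had the lowest Oxt and Avp, read 0.02 above the mean of the other 3 FA brains in Oxtr.

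Avpr1a is the vasopressin receptor found most widely in the brain, measured at chr10:121890135-121890194 (mm9, plus strand). Avpr1a read 5.92, 5.75, 6.06, and 5.85 in the CD progenies, 5.74, 6.62, 5.98, and 5.78 in the PR progenies, and 5.99, 5.57, 6.18, and 5.70 in the FA progenies. PR replicate 2 was the highest and FA replicate 2 the lowest, and the groups overlapped. The difference was 0.13 between PR and CD (95% interval −0.30 to 0.57, adjusted p = 0.639), −0.03 between FA and CD (95% interval −0.47 to 0.40, adjusted p = 0.917), and −0.17 between FA and PR (95% interval −0.60 to 0.27, adjusted p = 0.767). The order of the 3 means, PR, CD, and FA, was thus not separated by the spread between brains.

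Avpr1b is the vasopressin receptor of pituitary corticotrophs and of a small field of the hippocampus. Its probe, at chr1:133508515-133508574 (mm9, plus strand), was not well above background on any array, so no level or fold was taken from it. Avpr2, the vasopressin receptor of the kidney, was counted with the signaling genes, and each of its 2 probes was well above background on 2 arrays.

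Among the 5 genes measured above background, only Cd38 had a higher mean in both diet groups than in CD with a 95% interval of the difference that excluded 0 in each. Its probe lies at chr5:44302865-44302924 (mm9, plus strand). Cd38 read 9.14, 8.88, 9.46, and 9.30 in the CD progenies, 9.40, 9.66, 9.54, and 9.55 in the PR progenies, and 9.67, 9.29, 9.57, and 9.47 in the FA progenies. CD replicate 3 lay within the range of both other groups, and CD replicate 4 within that of FA. The means were 9.19 ± 0.25 for CD, 9.54 ± 0.11 for PR, and 9.50 ± 0.16 for FA (SD, n = 4). The difference was 0.35 between PR and CD (SE 0.12, 95% interval 0.08 to 0.62, adjusted p = 0.0553), a ratio of 1.27, and 0.30 between FA and CD (SE 0.12, 95% interval 0.03 to 0.57, adjusted p = 0.0782), a ratio of 1.23. PR and FA differed by −0.04 (95% interval −0.31 to 0.23, adjusted p = 0.924).

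Cd38 lay close to the threshold, and its call changed with single arrays. It rose by 0.35 between PR and CD and by 0.37 between FA and CD without FA replicate 2 (adjusted p = 0.0496 and 0.0465), and by 0.43 and 0.39 without CD replicate 3 (adjusted p = 0.0241 and 0.0310). Between PR and CD it was also called with scaling to the 75th percentile (adjusted p = 0.0397), with dim probes removed (adjusted p = 0.0476), and with a robust variance trend (adjusted p = 0.0448). It was not called with the Tukey test of the methods (adjusted p = 0.168), with CD and PR alone (adjusted p = 0.0809), or with a replicate block (adjusted p = 0.0715). Without CD replicate 2 the differences were smaller, 0.24 in PR and 0.20 in FA (adjusted p = 0.124 and 0.185). Cd38 is made by immune cells as well as by glia and neurons. S100a9, a marker of granulocytes, was highest in PR replicate 2 (11.94), FA replicate 1 (11.40), and FA replicate 3 (10.99), the 3 brains that were also highest in Cd38, but PR replicate 4 had the lowest S100a9 of all (7.96) beside a Cd38 level of 9.55. The list of 13 blood and microglia probes had 2 that fell and 2 that rose between PR and CD, and again between FA and CD. That was 30.8% called in each comparison, near the 30% and 34.4% of all probes. Its summed intensity was 137011 to 149575 in CD, 111961 to 167767 in PR, and 108491 to 148789 in FA, and its part in the Cd38 difference was not tested. Of the 13, Cx3cr1 of microglia rose by 0.62 in PR and by 0.38 in FA on 1 of its 2 probes (adjusted p = 0.000152 and 0.00209). Its other probe had lower means in PR and FA (12.14 and 12.18) than in CD (12.39). Aif1, also of microglia, fell by 0.37 and by 0.28 (adjusted p = 0.00957 and 0.0313). Csf1r, again of microglia, fell by 0.30 in PR on 1 probe (adjusted p = 0.0443). Another Csf1r probe had means of 9.16 in CD, 9.45 in PR, and 9.34 in FA, and was called higher in PR as well as in FA (adjusted p = 0.0214 in FA). In PR these Csf1r probes were thus called in opposite directions. The means of the remaining Csf1r probe were 13.9, 13.7, and 13.7. Gfap, the marker of astrocytes, rose on 2 of its 3 probes, by 0.57 and 0.43 in PR (adjusted p = 0.000236 and 0.000992) and by 0.48 and 0.32 in FA (adjusted p = 0.000547 and 0.00446). Of the 9 whole-brain probes, 2 fell and 3 rose in PR, and 2 fell and 2 rose in FA. That was 55.6% and 44.4% called, against 30% and 34.4% of all probes, and the part of these probes was not tested either.

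Over all comparisons, 0 of the 6 probes were called by limma or by the Tukey test of the methods. At an unadjusted p under 0.05, limma gave 1 of 6 between PR and CD, 3 of 6 between FA and CD, and 0 of 6 between FA and PR, against 41.1%, 44.4%, and 14.1% of all probes. They were Cd38 between PR and CD, and Avp, Cd38, and Avpr1b between FA and CD, of which Avpr1b was at background on all arrays, which leaves 2 of the 5 measured genes. The adjusted test called 30% of all probes between PR and CD, 34.4% between FA and CD, and 0.614% between FA and PR. The 2 probes whose PR values all lay below the CD values, Oxt and Avp, stand against 19% of all probes that were lower in PR without overlap. No probe of the 6 separated FA from CD or from PR, against 36.9% and 11.1% of all probes. Without FA replicate 2, when Oxt and Cd38 were called between PR and CD and Cd38 between FA and CD, the called shares of all probes were 29.5%, 32%, and 0.124%. Both the PR and the FA comparison use the same 4 CD brains, so their differences are not independent.

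**Figure D2:**
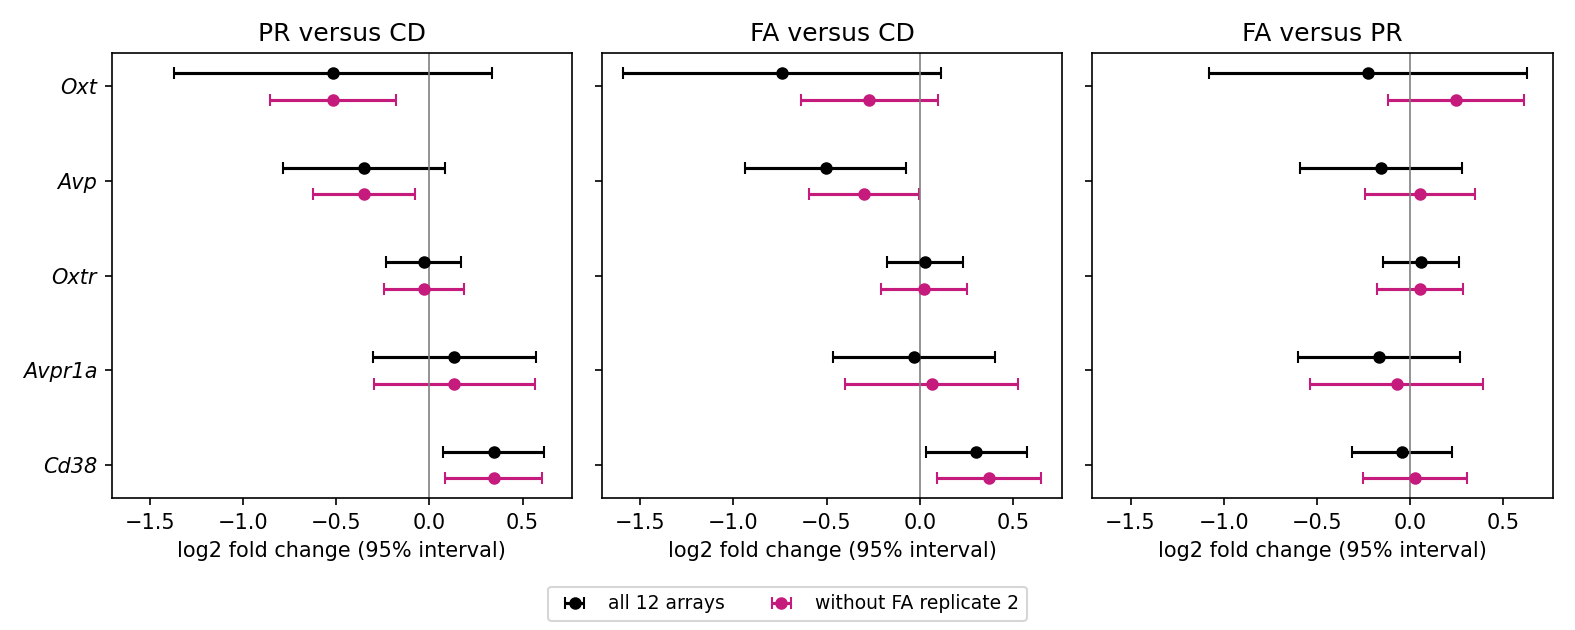
Log2 fold change (x axis) with its 95% interval for the 5 genes measured above background (y axis) in 3 comparisons, from the fit of all 12 arrays (black) and without FA replicate 2 (pink). The interval of Oxt between PR and CD runs from −1.37 to 0.34 with all arrays and from −0.86 to −0.18 without that brain, and the Oxt difference between FA and PR changes sign.

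Oxt and Avp varied together from brain to brain. After the mean of each diet was subtracted, Pearson's r over the 12 brains was 0.888 (exact permutation within groups, p = 0.0154, adjusted p = 0.0723 over 10 pairs of the 5 measured genes), and Spearman's rho was 0.734 (p = 0.0227, adjusted p = 0.114, same exact permutation). Without the brains farthest from the median Oxt, FA replicates 2 and 3, r was 0.305, so the relation rests on them. It was 0.604 without FA replicate 2 alone. Among 23752 other probes well above background on all arrays, Avp ranked 55 by r with Oxt, and 1053 without FA replicate 2. Cartpt (r = 0.963) ranked 3 and Agrp (r = 0.950) ranked 10 with all arrays. Within diets the arrays share a slide, so these values do not depend on differences between slides.

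The pair with the smallest p was Avpr1a and Cd38. Their r was 0.628 (exact permutation, p = 0.00543, adjusted p = 0.0543) and their rho 0.727 (exact permutation, p = 0.00448, adjusted p = 0.0448). Without the brains farthest from the median Avpr1a, PR replicate 2 and FA replicate 3, r was 0.801. Those 2 brains were among the 3 highest in S100a9. The remaining 8 pairs had adjusted p values of 0.0723 or more for r and of 0.193 or more for rho.

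**Figure D3:**
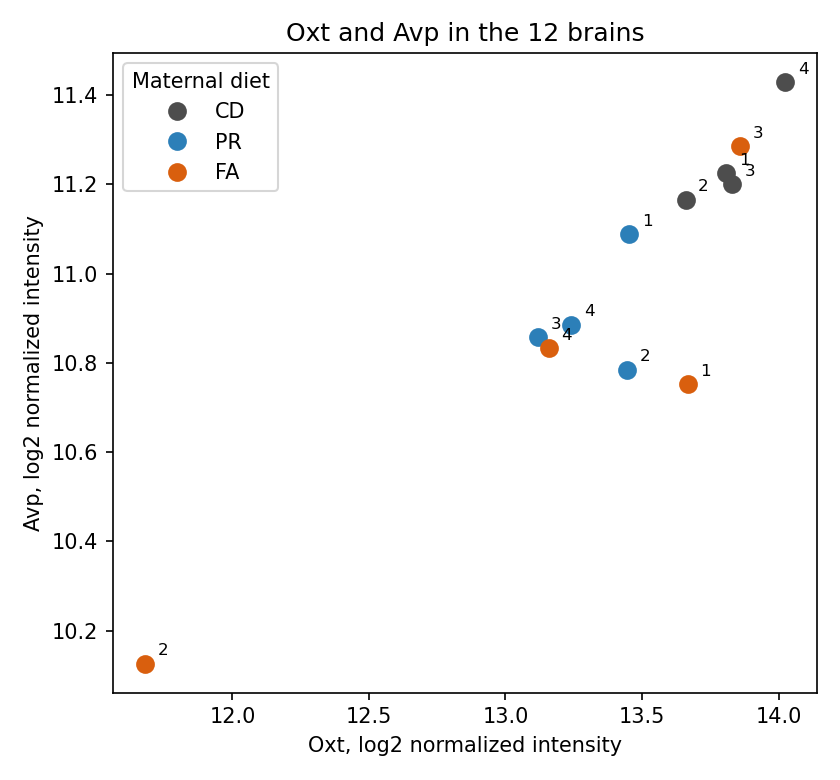
Oxt (x axis) against Avp (y axis), both as log2 normalized intensity, in each of the 12 brains, colored by maternal diet and numbered by replicate. FA replicate 2 lies alone at 11.68 and 10.13, and the other 11 brains lie at 13.12 or more in Oxt and at 10.75 or more in Avp.

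The probes whose deviations from the group means were most like those of Oxt, among 23752 other probes well above background on all arrays, were a transcript named ENSMUST00000098678 (r = 0.969 over 12 brains), Ucn (0.964), Cartpt (0.963), Tph2 (0.959), and Slc14a2 (0.958). Ucn encodes urocortin, Cartpt a feeding peptide, Tph2 the serotonin-making enzyme of neurons, and Slc14a2 a urea transporter. Without FA replicate 2 their r was 0.928, 0.774, 0.840, 0.631, and 0.850, and Tph2 ranked 853. For Avp they were Pvrl2 (0.945), Mbd3 (0.942), 1700026D08Rik (0.940), Pomc (0.940), and 1700045I19Rik (0.939), of which Pomc encodes the precursor of melanocortins. Among these listed probes Pomc had the highest r without FA replicate 2 (0.881), where it ranked 34 and the others 82 to 145.

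FA replicate 2 was also low in several other hypothalamic peptides. Against the mean of the other 3 FA brains, it differed by −1.88 in Oxt, −0.83 in Avp, −1.94 in Agrp, −1.04 in Cartpt, −0.70 in Ghrh, and −0.66 in Gal, each the lowest of the 12 brains. Agrp and Ghrh are made in the arcuate nucleus, at the base of the hypothalamus. The same brain was not low in Trh (0.19 above the other FA brains), Pmch (0.13 above), Hcrt (0.30 above), or Pdyn (0.13 above), and differed by −0.17 in Crh. Pmch and Hcrt are made in the lateral hypothalamus. In all, 4 of 9 hypothalamic peptide probes above background were lowest in FA replicate 2, against 7.57% of 23753 such probes on the array. This brain was singled out after its values in hypothalamic genes were seen, so the count describes it and is not a test. Markers of other cells were also low in this brain. It was the lowest of 12 in the red blood cell genes Hbb-b1 (−0.41 from the other FA brains), Hba-a1 (−0.47), and Alas2 (−0.54), in Ttr of the choroid plexus (−0.15), and in 1 of 3 probes each of Gfap (−0.31) and Mbp (−0.28). By list, that was 3 of 11 blood and microglia probes above background, 1 of 6 of the choroid plexus, and 2 of 9 of the whole brain. In the lists described below it was 3 of 13 for peptide processing, 2 of 7 for suprachiasmatic and clock genes, and 1 of 16 for receptor signaling. It was 0 of 5 for calcium release, 0 of 2 for transcription factors, and 0 of 2 for the pituitary. Cga, a pituitary hormone subunit, was not well above background in FA replicate 2 and was so in the other 11 brains. The part of these genes in the Oxt and Avp values of this brain was not tested.

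The other hypothalamic peptides give the surroundings of the Oxt and Avp values. Between PR and CD, 2 of 10 probes fell and 0 rose, against 16.6% and 13.4% of all probes, 5 did not overlap, all lower in PR, against 19%, and the median difference was −0.26, against −0.02 over all probes. Pmch, the precursor of melanin-concentrating hormone, fell by 0.59 (SE 0.085, adjusted p = 0.000633), and Trh, thyrotropin-releasing hormone, fell by 0.44 (SE 0.13, adjusted p = 0.0317). Pmch read 12.14, 11.95, 12.03, and 11.93 in the CD progenies and 11.45, 11.29, 11.50, and 11.44 in the PR progenies. Agrp differed by −0.65 (adjusted p = 0.233), Ghrh by −0.52 (adjusted p = 0.0603), and Gal by −0.38 (adjusted p = 0.0901), and without FA replicate 2 all 3 were called (adjusted p = 0.00427, 0.0206, and 0.0144). Crh, Pdyn, Hcrt, and Cartpt differed by −0.15 to 0.03 and were not called.

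Between FA and CD, 3 of 10 hypothalamic peptide probes fell and 0 rose, against 18% and 16.4% of all probes, and the median difference was −0.37, against −0.01 over all probes. Pmch fell by 0.43 (adjusted p = 0.00306), Trh by 0.42 (adjusted p = 0.0320), and Gal by 0.45 (adjusted p = 0.0438), of which Gal was not called without FA replicate 2 (−0.28, adjusted p = 0.0560). Agrp differed by −1.05 (adjusted p = 0.0579) and was called without that brain, where it fell by 0.57 (adjusted p = 0.0107). Between FA and PR, 0 of 10 were called by limma, and 0 of 10 at an unadjusted p under 0.05.

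**Figure D4:**
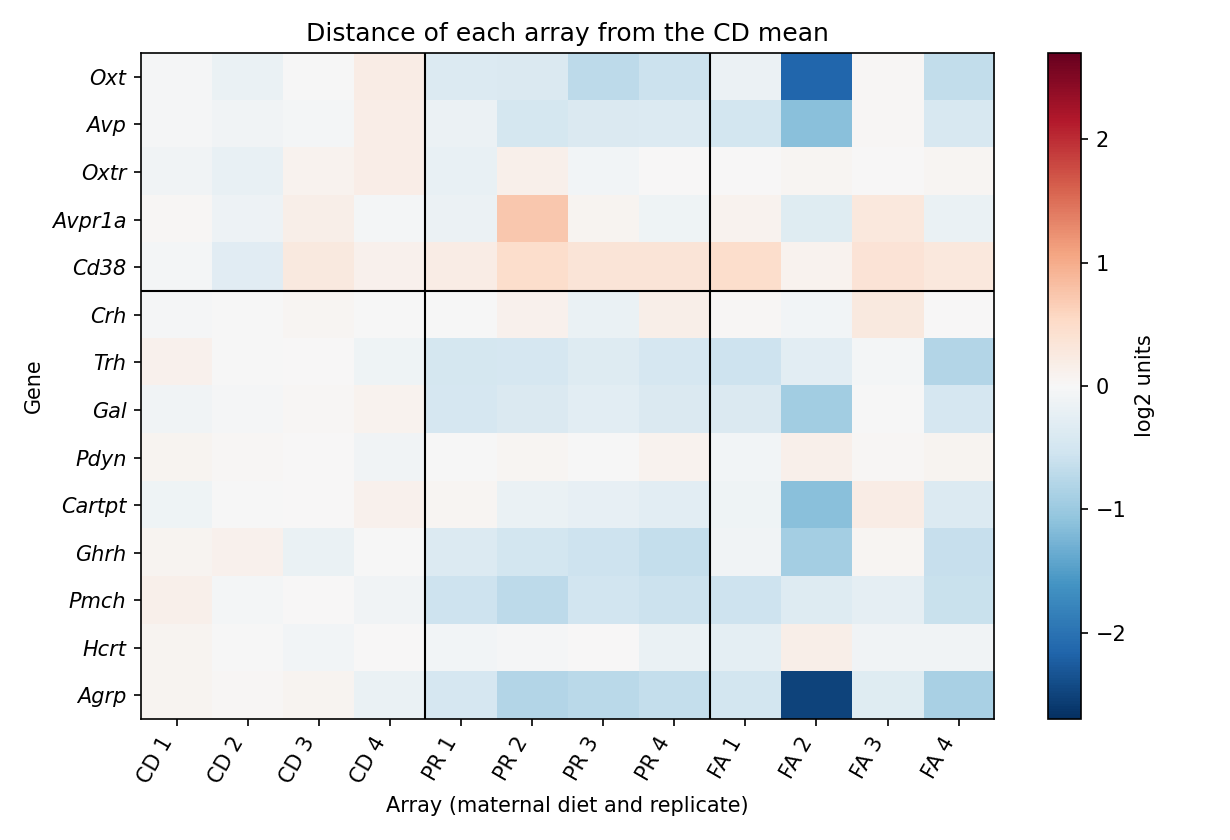
Difference in log2 normalized intensity of each array (columns, by maternal diet and replicate) from the mean of the 4 CD arrays, for the 5 genes of the system above the line and 9 other hypothalamic peptides under it, blue for lower and red for higher. The PR columns are blue in Oxt, Avp, Trh, Gal, Ghrh, Pmch, and Agrp, and the column of FA replicate 2 is the darkest in Oxt and Agrp.

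The genes around the system were taken in 4 lists, with 33 genes and 44 probes, of which 36 were well above background on all arrays. Between PR and CD, 5 of the 44 fell and 4 rose (20.5%), and between FA and CD, 9 fell and 3 rose (27.3%), below the shares of all probes given above. Between FA and PR, 0 of 44 were called by limma, with 5 at an unadjusted p under 0.05 and 0 called by the Tukey test of the methods. The median difference of the 44 was 0.00 between PR and CD and −0.02 between FA and CD.

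Of 13 probes for the processing and storage of peptides, 1 fell and 1 rose in PR and again in FA. The precursor-cutting enzymes Pcsk1 and Pcsk2 and the amidating enzyme Pam were not called. The Pcsk2 probes went opposite ways. The means in CD, PR, and FA were 13.71, 13.23, and 13.15 on 1 probe and 13.98, 14.17, and 14.12 on the other. Of the 3 probes of Cpe, the carboxypeptidase that trims hormone precursors, 1 rose by 0.29 in PR (adjusted p = 0.00900) and by 0.43 in FA (adjusted p = 0.000875), whereas the other 2 differed by −0.05 and 0.04 in PR and by 0.08 and 0.10 in FA and were not called. Lnpep, the aminopeptidase that breaks down oxytocin and vasopressin, fell by 0.30 in PR (adjusted p = 0.0391) and by 0.37 in FA (adjusted p = 0.0143), with overlapping groups.

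Of 4 transcription factors that direct the development of the neurosecretory neurons, Otp had the widest difference. It was well above background in CD replicates 1 and 2 and in none of the PR or FA brains. Otp read 4.43 to 5.43 in CD, 2.86 to 3.40 in PR, and 2.81 to 3.84 in FA. It was called lower in PR (adjusted p = 0.000909) and in FA (adjusted p = 0.000800). The other CD brains were not well above background either, so no fold was taken from Otp. Arnt2, a partner of Sim1, rose by 0.26 in PR (adjusted p = 0.00861) and by 0.23 in FA (adjusted p = 0.0136). Pou3f2 fell by 0.50 in FA (adjusted p = 0.0281) and differed by −0.26 in PR (adjusted p = 0.230). Sim1 was called lower in both groups, but was not well above background on any array, and no fold was taken from it.

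The list of 20 probes for receptor signaling, which also holds the Gs-coupled Avpr2, had 2 that fell and 1 that rose in PR, and 4 that fell and 0 that rose in FA. Itpr2, a calcium channel opened by inositol trisphosphate, fell by 0.24 in PR (adjusted p = 0.0199) and by 0.40 in FA (adjusted p = 0.00118). Plcb3, a phospholipase activated by Gq, fell by 0.18 and by 0.17 (adjusted p = 0.0107 and 0.0148). Of the 3 probes of Plcb4, 1 fell by 0.27 in FA (adjusted p = 0.0360). The other 2 had means of 12.44 and 9.92 in CD and of 12.38 and 9.77 in FA, and were not called. The 3 probes of Plcb1 disagreed, with 1 that rose by 0.28 in PR (adjusted p = 0.0103), another that fell by 0.38 in FA (adjusted p = 0.0429), and another that was called in neither. The Gq subunits Gnaq and Gna11 were not called.

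Of the 7 probes around Cd38, for cyclic ADP-ribose and calcium release, Ryr1, a ryanodine receptor, rose by 0.31 in PR (adjusted p = 0.00461) and by 0.35 in FA (adjusted p = 0.00217). Ryr2 fell by 0.26 in FA (adjusted p = 0.0411). Bst1, the other enzyme of this kind, was well above background on 5 arrays with 1 probe and on 0 with the other, and neither was called. Trpm2, a channel opened by ADP-ribose, and Nampt were not called.

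The pituitary hormones Gh and Prl were lower in both diet groups than in CD. Gh, growth hormone, and Prl, prolactin, were well above background in the 4 CD brains and FA replicate 4 and in no other brain. Between CD and PR they were at least 19.8-fold and at least 18.7-fold higher in CD (adjusted p = 0.000549 and 0.00562). FA replicate 4, the FA brain with Gh at 6.16 and Prl at 7.35, read 13.16 in Oxt, lower than FA replicates 1 and 3, and 10.83 in Avp, higher than FA replicate 1 and lower than FA replicate 3. Of 8 pituitary markers on 9 probes, 2 probes, those of Gh and Prl, were called lower in PR and in FA, against 16.6% and 18% of all probes. Their summed intensity, leaving out a bright Pou1f1 probe that a second Pou1f1 probe at background does not match, was 744 to 850 in CD, 207 to 344 in PR, and 146 to 511 in FA. The part of pituitary tissue in the Oxt and Avp differences was not tested. Of 6 choroid plexus probes, 0 were called by limma between either diet and CD, with 0 at an unadjusted p under 0.05 between PR and CD and 1 between FA and CD.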

How the data were processed

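Brain RNA of 12 progenies was labeled with Cy3 and hybridized to 1-color Agilent arrays. Per the file headers, spots were quantified with Feature Extraction 11.0.1.1, corrected for background within each array, and annotated to mm9. The authors deposited 1 linear intensity per probe after normalization between arrays with the qspline function. Its ranks equal those of the scanner's processed signal on each array (Spearman's rho 1), and its medians were 140.97 to 141.74. The methylation arrays were not analysed here.

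Log2 of these intensities was fitted with limma 3.58.1 in R 4.3.3, all 3 groups together, with two-sided tests and Benjamini-Hochberg adjustment over 39429 probes. Oxt, Avp, and the other pairs were tested by all 13824 permutations of arrays within groups. Figures and sequences were handled in Python 3.11.15 with pandas 2.3.3. Scripts were tested on simulated data. The 6 genes and all lists were chosen with earlier results of these data known. Named genes were every probe of the 6 genes, the 3 called probes of each list with the largest non-overlapping change, Gh, Prl, and the 5 nearest profiles of Oxt and Avp. Others (Lnpep, Otp, Pou3f2, Sim1, Agrp, Gal, Ghrh, S100a9, Cga, Hbb-b1, Hba-a1, Alas2, Ttr, and genes not called) were named after their values were seen. All 6 accessions matched their symbols in RefSeq. No spot was saturated. The number of arrays limits the precision, and mice of a diet may share a mother, so p-values measure the spread between these brains alone.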

Additional observations from a re-analysis of the deposited data

Results flagged for a closer look

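In 34 probes and 3 groups each, 102 sets of 4 arrays were searched for a brain far from the others, and 4 were found, whereas chance alone gives about 5% of sets. The Cpe probe A_55_P2152248 read 14.26 in PR replicate 4, above the nearest PR brain at 14.12. The Plcb4 probe A_55_P2121980 read 10.17 in FA replicate 3, below the nearest FA brain at 10.43. Among the markers, Cx3cr1 read 9.87 in CD replicate 3 (nearest 9.84) on probe A_52_P99810, and Aif1 read 10.83 in CD replicate 4 (nearest 10.58) on probe A_51_P400543.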

How the results depend on the processing

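Counts of the 6 genes called between PR and CD were 0 in the fit reported, 1 with scaling to the 75th percentile, 1 with dim probes removed, 1 with a robust variance trend, 2 with the compared groups alone, and 0 to 2 when each array was left out. Between FA and CD they were 1 with normexp (Avp, adjusted p = 0.0414) and 0 to 1 when each array was left out, where Avpr1b, at background, was called without FA replicate 1. Between FA and PR they were 0 throughout. At least 2-fold and an adjusted p under 0.0001 left 34, 77, and 0 of all probes in the 3 comparisons and 0 pathway probes. The Tukey test with these limits, which are the criteria of the paper, was added after seeing the data and left 0, 1, and 0. The paper reported more genes with these criteria in each comparison, and the cause was not tested. Pathway counts between FA and CD were 7 with the compared groups alone, and 7 to 13 when each array was left out (7 without CD replicate 1 or FA replicate 1). All probes called between FA and PR numbered 139 with the 75th percentile, 101 with the compared groups alone, 554 with dim probes removed, 436 with the variance trend, 8 with the Tukey test, and 34 to 259 when each array was left out (at most 107 unless it was CD replicate 4 or FA replicate 1). The share of called probes that were higher, 44.7% between PR and CD, was 56.2% with normexp and 55.5% with dim probes removed; the cause was not tested.

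Deviations of same-numbered brains were at most weakly correlated (−0.063 to 0.196). This cannot settle whether a replicate number stands for a shared array position or order. The median net signal of the negative controls rose from replicate 1 to replicate 4 in each group. It went from 28.3 to 34.9 in CD, from 42.3 to 51.4 in PR, and from 38.9 to 47.9 in FA. With the replicate block, 10986, 12710, and 11 of all probes were called in the 3 comparisons, and 0 of the 6 genes. Signs near 0 reversed. The Avpr1b probe, at background and so without a level or direction, was fitted at −0.13 (75th percentile) and −0.064 (normexp) between PR and CD, and Avpr1a between FA and CD was 0.0091 and 0.019. When each array was left out, Oxtr ran from −0.097 to 0.032 (PR versus CD) and −0.038 to 0.092 (FA versus CD), and Avpr1a from −0.064 to 0.23 and −0.14 to 0.065. Between FA and PR, Oxt ran from −0.48 to 0.25, Avp from −0.33 to 0.053, Avpr1a from −0.27 to 0.031, and Cd38 from −0.097 to 0.028. The Oxt–Avp correlation was 0.604 to 0.958, and its p missed 0.05 without FA replicate 2 or FA replicate 3.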

Other observations

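The suprachiasmatic nucleus, the seat of the clock, also makes vasopressin. Of 8 probes for suprachiasmatic peptides and clock genes, 1 fell and 1 rose between PR and CD, against 16.6% and 13.4% of all probes, and 2 fell and 3 rose between FA and CD, against 18% and 16.4%. Between FA and PR, 0 of 8 were called by limma, with 5 at an unadjusted p under 0.05. The time of day at which each brain was taken is not given in the sources used here. Nr1d1, a repressor of the clock, rose by 0.41 in PR (adjusted p = 0.000588) and by 0.64 in FA (adjusted p = 7.3e-05). It read 10.15, 10.14, 10.23, and 10.12 in CD, 10.69, 10.45, 10.54, and 10.61 in PR, and 10.90, 10.80, 10.73, and 10.78 in FA. Dbp, a clock output gene, rose by 0.51 and by 0.25 in FA on its 2 probes, Per1 fell by 0.42 in FA (adjusted p = 0.00144), and Prok2, an output peptide of the suprachiasmatic nucleus, fell by 0.40 in PR (adjusted p = 0.0207) and by 0.48 in FA (adjusted p = 0.00737). Vip and Per2 were not called.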
